A study of Mus musculus with 11 samples.

Results

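The genes described here are 10 markers of neurons and synapses, measured in mouse high-grade gliomas in which the histone methyltransferase gene Ezh2 was knocked down or not. They are Snap25, Syt1, Syn2, Nrgn, Stmn2, Nefl, Nefm, Tubb3, Rbfox3 and Ncam1, chosen by symbol as a readout of neurons in or around a tumour, and all 10 were found among the 27687 genes of the count table. Neurons pass signals by fusing vesicles with the membrane of the nerve ending. Snap25 is part of the complex that drives this fusion, Syt1 is the calcium sensor that triggers it, and Syn2 tethers vesicles in reserve. Nrgn binds calmodulin on the receiving side of the synapse. Nefl and Nefm are subunits of the neurofilaments of axons, Stmn2 regulates microtubules in growing axons, and Tubb3 is the beta-tubulin of neurons. Rbfox3, known as NeuN, is a splicing regulator of mature neurons, and Ncam1 is an adhesion molecule of neurons and many glial and tumour cells.

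All tumours came from neural stem cells of the subventricular zone of 7-day-old mice with conditional alleles, p53, Ink4a/Arf and LucR among them. The cells were grown with the growth factors EGF and bFGF at 20 ng/ml. In culture they were made tumorigenic with lentiviral CMV-Cre, infected with the hairpin construct FH1-tUTG-shEzh2, which doxycycline switches on, sorted for GFP and injected into the brains of NOD-SCID mice, which lack functional T and B lymphocytes. The 9 knockdown tumours are labelled as having prolonged Ezh2 knockdown and the 2 controls as lacking it, and both groups carry the hairpin construct. The labels give the same drinking water, 2 mg/ml doxycycline with 1% sucrose, for both groups, whereas the design text speaks of treatment with or without the drug, so that effects of the drug and of the hairpin cannot be told apart. Whether the tumours came from separate cell preparations is not said, and p-values rest on the spread among these samples alone, part of which may be technical. Whole tumours were lysed: more cells of a type and more RNA per cell cannot be told apart, nor can RNA of neurons of the host brain and RNA of tumour cells.

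Libraries held between 11209233 and 18638382 counts, and levels are given as CPM, read counts scaled to a common library total with edgeR's TMM factors. Ezh2 ranged between 7.27 and 30.4 CPM in the knockdown tumours and stood at 45.3 and 52.6 CPM in the controls (edgeR quasi-likelihood test, log2 fold change -1.59 ± 0.44 SE, adjusted p = 0.023). That call was lost with either control left out (log2 fold change -1.70, adjusted p = 0.11 without control 1, and -1.48, adjusted p = 0.14 without control 2). The RNA Xist, which is made in cells with more than a single X chromosome, stood at over 10 CPM in both controls and in knockdown 2 to 6, and at 1.10 CPM or less in knockdown 1, 7, 8 and 9. The comparison was therefore also run within the 7 libraries with Xist reads.

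PRC2, the complex of Ezh2, is known to act at promoters rich in CpG dinucleotides. Promoter windows of RefSeq (GRCm38.p6, 250 bases before to 50 after an annotated start) were at hand for 5 of the 10 genes, in 7 windows. The windows of Nrgn and Rbfox3 are shown because both genes were higher in the knockdown tumours and their windows differ in CpG content. They are written 5′ to 3′ on the gene's strand, which is the minus strand for both, with each CpG in capitals. They lie at chr9:37552696-37552995 (Nrgn) and chr11:118760992-118761291 (Rbfox3).
Nrgn: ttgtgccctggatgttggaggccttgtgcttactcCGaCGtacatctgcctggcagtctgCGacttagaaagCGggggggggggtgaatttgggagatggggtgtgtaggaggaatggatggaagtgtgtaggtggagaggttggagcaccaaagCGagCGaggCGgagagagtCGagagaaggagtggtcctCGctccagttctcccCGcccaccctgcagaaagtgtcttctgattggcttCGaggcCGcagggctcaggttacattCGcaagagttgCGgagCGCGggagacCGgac
Rbfox3: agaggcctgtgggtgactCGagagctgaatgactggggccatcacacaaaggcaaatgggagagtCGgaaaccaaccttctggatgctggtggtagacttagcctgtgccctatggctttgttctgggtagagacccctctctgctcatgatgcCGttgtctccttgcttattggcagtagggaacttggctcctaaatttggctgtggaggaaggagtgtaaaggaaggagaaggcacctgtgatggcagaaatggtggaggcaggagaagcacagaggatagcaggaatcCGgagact
The Nrgn window holds 17 CpG dinucleotides and the Rbfox3 window 4, beside a median of 7 over all 32851 windows of the table. Of the other members, the Tubb3 window holds 26, the 2 windows of Syn2 hold 21 and 5, and those of Syt1 hold 8 and 6. A gene can thus have starts of unlike CpG content. Whether the Rbfox3 window lies at the main start of that gene or at an internal start was not checked, so its count may not describe the main promoter. The repressor REST holds neuronal genes off outside neurons, and its site has a left and a right part, here searched on both strands as the letters TTCAGCACC and GGACAGC, which do not overlap each other. The first was in 0 of the 7 windows (0.371% of all windows) and the second in 1, that of Tubb3 (6.56% of all windows). With shares so low, 7 windows cannot tell whether these genes have a REST site. Neither the bases outside the windows nor the members without a window were searched.

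Between knockdown and control tumours the 10 genes went in different directions. By the edgeR quasi-likelihood test with Benjamini-Hochberg adjustment over 16241 genes, 3 rose (Nrgn, Rbfox3 and Snap25), 1 fell (Ncam1) and 6 did not pass at an adjusted p of 0.05. Among all genes tested, 10.3% passed as higher and 13% as lower, or 23.3% in either direction. The median log2 fold change of the 10 genes was 1.10, beside 0.07 over all genes tested. In the same 4 genes all knockdown tumours lay on one side of both controls, above in 3 genes and below in 1, as was so for 27.2% of all genes (13.3% higher, 13.8% lower). All 10 genes had at least 1 count in every library.

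With so few controls the count of calls depended on each of them. Without control 1 only Nrgn passed (7.61% of all genes did so), and without control 2 Nrgn and Ncam1 passed (10.4% of all genes). Without knockdown 8 the same 4 genes passed (22.7% of all genes), as they did with DESeq2 (26.1%), and limma-voom called 3 (20.8%), leaving out Snap25. Within the libraries with Xist reads Nrgn and Snap25 rose and Ncam1 and Stmn2 fell (29.3% of all genes passed).

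**Figure D1:**
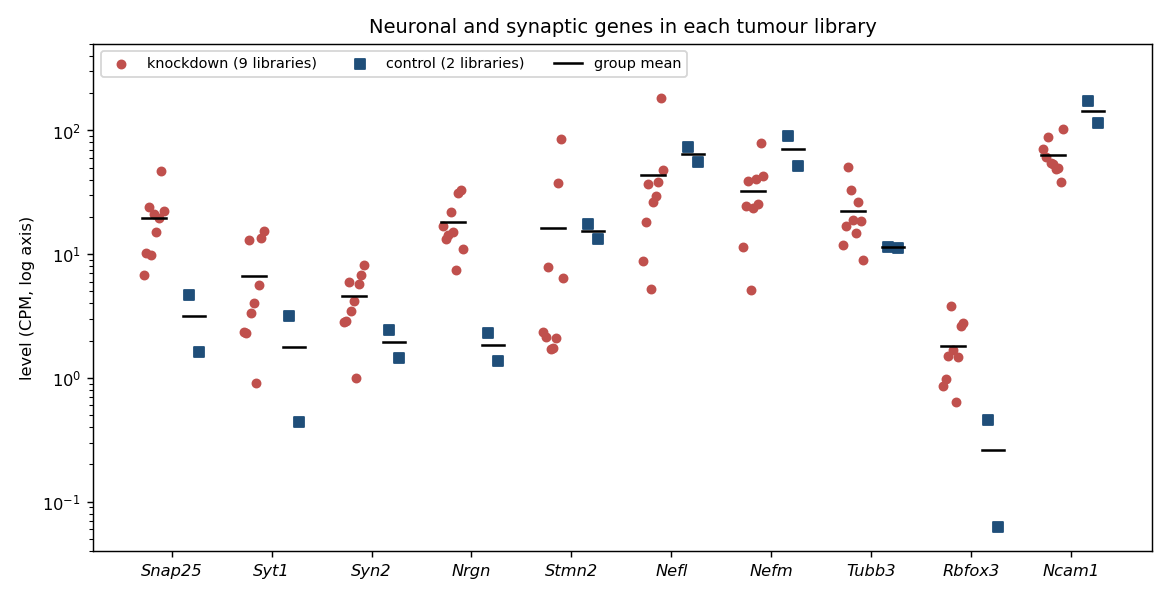
Level of each gene in every library, in CPM on a log axis, with 9 knockdown tumours (circles), 2 controls (squares) and group means (lines). Snap25, Nrgn and Rbfox3 lie above both controls in every knockdown tumour and Ncam1 below, while Stmn2 and Nefl spread over both sides.

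Of the vesicle genes, Snap25 (ENSMUSG00000027273, mm9 chromosome 2, 136539189 to 136608164) was lowest in knockdown 1 at 6.73 CPM, had a median of 19.7 CPM, and was highest in knockdown 8 at 47.2 CPM. The controls stood at 4.69 and 1.63 CPM, so that every knockdown tumour was above both. The log2 fold change was 2.64 ± 0.74 (SE; edgeR, adjusted p = 0.024), or 6.24-fold. The controls themselves differed 2.88-fold. With 1 control left out the call was lost, at 3.58 (adjusted p = 0.070) without control 1 and 2.06 (adjusted p = 0.19) without control 2, and limma-voom did not call it either (2.69, adjusted p = 0.063). Without knockdown 8 it was 2.36 (adjusted p = 0.017).

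Syt1 (mm9 chromosome 10, 107934706 to 108448038) ranged between 0.908 CPM in knockdown 6 and 15.3 CPM in knockdown 9, with a median of 4.05 CPM. The controls stood at 3.15 and 0.438 CPM, apart from each other, and 6 of the 9 knockdown tumours were above both. Its log2 fold change of 1.93 ± 1.09 did not pass (edgeR, adjusted p = 0.22), and it was 3.92 without control 1 and 1.09 without control 2 (adjusted p = 0.20 and 0.62). Syn2 (mm9 chromosome 6, 115084920 to 115232644) had a lowest level of 0.999 CPM, a median of 4.18 CPM and a highest of 8.22 CPM, again in knockdown 6 and knockdown 9 at the ends, against 2.46 and 1.44 CPM in the controls. Here 8 knockdown tumours were above both controls and 1 below both, and the log2 fold change of 1.23 ± 0.63 did not pass (edgeR, adjusted p = 0.17). Timp4, with between 6 and 159 counts a library, lies within Syn2 on the opposite strand, so that its reads are kept apart only where strand was used in counting.

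On the receiving side of the synapse, Nrgn (ENSMUSG00000053310, mm9 chromosome 9, 37352078 to 37360330) had the largest change of the 10 genes. It ranged between 7.45 CPM in knockdown 6 and 32.9 CPM in knockdown 8, with a median of 15.0 CPM, whereas the controls stood at 2.31 and 1.38 CPM. The groups were well apart: the lowest knockdown tumour was above the highest control. The log2 fold change was 3.31 ± 0.61 (SE; edgeR, adjusted p = 0.0033), or 9.92-fold. Unlike the other 3 calls it held in all 18 alternative fits, between 2.94 and 3.72, with adjusted p up to 0.048 when control 2 was left out.

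Rbfox3 (ENSMUSG00000025576, mm9 chromosome 11, 118351074 to 118772911), the nuclear marker of mature neurons, was the scarcest of the genes. The knockdown tumours ranged between 0.636 CPM in knockdown 6 and 3.83 CPM in knockdown 4, with a median of 1.52 CPM. Control 1 had 6 counts (0.461 CPM) and control 2 had 1 count (0.0626 CPM), the latter under the floor of 3 counts. All 9 knockdown tumours lay above both, with a log2 fold change of 2.82 ± 0.86 (SE; edgeR, adjusted p = 0.034). The call was lost without control 1 (4.69, adjusted p = 0.059), without control 2 (1.97, adjusted p = 0.24) and within the libraries with Xist reads (2.73, adjusted p = 0.064).

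None of the 4 cytoskeletal genes passed. Nefl (mm9 chromosome 14, 68701920 to 68707152) ranged between 5.20 CPM in knockdown 4 and 184.5 CPM in knockdown 8, with a median of 29.5 CPM, and stood at 73.3 and 55.9 CPM in the controls. All knockdown tumours but knockdown 8 were below both controls. The log2 fold change was -0.55 ± 0.92 (edgeR, adjusted p = 0.69), and without knockdown 8 it was -1.29 (adjusted p = 0.13). Within the libraries with Xist reads it was -1.51 (adjusted p = 0.072). Nefm (mm9 chromosome 14, 68700647 to 68742903) ranged between 5.13 CPM in knockdown 4 and 78.5 CPM in knockdown 8, with a median of 25.4 CPM, against 89.6 and 51.6 CPM in the controls. Here 8 of 9 knockdown tumours were below both controls and knockdown 8 lay between them (-1.12 ± 0.63, adjusted p = 0.22). The table's model of Nefm spans that of Nefl on the opposite strand, so that without strand in counting their reads may not be told apart.

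Stmn2 (mm9 chromosome 3, 8509527 to 8561604) varied most among the knockdown tumours, 49.6-fold between 1.71 CPM in knockdown 4 and 85.0 CPM in knockdown 8. Its median was 2.35 CPM, well under the 17.7 and 13.3 CPM of the controls. Knockdown 7 and 8, at 37.5 and 85.0 CPM, were above both controls, and the 7 other knockdown tumours, at 7.86 CPM or less, were below both. The fitted log2 fold change was 0.08 ± 1.43 (edgeR, adjusted p = 0.97). It turned to -2.35 within the libraries with Xist reads, which leave out knockdown 7 and 8 with 1 and 9 (adjusted p = 0.022), and was -0.998 without knockdown 8 (adjusted p = 0.52).

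Tubb3 (mm9 chromosome 8, 125935324 to 125945915) had the most even controls, 11.5 and 11.3 CPM. The knockdown tumours ranged between 9.01 CPM in knockdown 9 and 50.8 CPM in knockdown 3, with a median of 18.7 CPM, and 8 of 9 were above both controls. The log2 fold change of 0.96 ± 0.55 did not pass (edgeR, adjusted p = 0.23).

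The adhesion gene Ncam1 (ENSMUSG00000039542, mm9 chromosome 9, 49310257 to 49607027) was the only member that fell. It ranged between 38.4 CPM in knockdown 8 and 101.9 CPM in knockdown 9, with a median of 54.7 CPM, while the controls stood at 174.4 and 115.3 CPM. Every knockdown tumour was below both controls, and knockdown 8, the highest for 5 of the other genes, was the lowest here. The log2 fold change was -1.20 ± 0.29 (SE; edgeR, adjusted p = 0.013), a 2.29-fold fall. Without control 1 it was -0.87 (adjusted p = 0.21) and without control 2 it was -1.47 (adjusted p = 0.030).

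**Figure D2:**
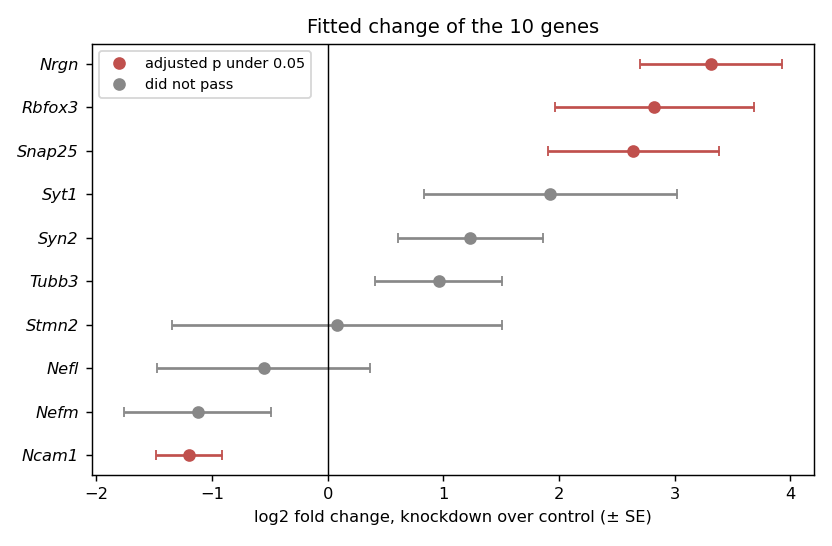
Fitted log2 fold change of knockdown over control for each gene, with its SE (9 and 2 libraries). Nrgn, Rbfox3 and Snap25 lie between 2.64 and 3.31, Ncam1 at -1.20, and the genes in grey did not pass.

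Per kilobase of exon, the order of the genes differed between the groups. In the controls Nefl was highest at 19.1 ± 3.63 CPM per kb (SD, n = 2), followed by Ncam1 at 16.7 ± 4.83, Nefm at 12.2 ± 4.65 and Tubb3 at 6.12 ± 0.0766 CPM per kb. Among the first 3, each lay within 1 SD of its neighbour in that order. Stmn2 followed at 2.77 ± 0.549, Nrgn at 1.27 ± 0.452, Snap25 at 0.465 ± 0.319, Syn2 at 0.277 ± 0.103, Syt1 at 0.215 ± 0.230 and Rbfox3 at 0.0450 ± 0.0485 CPM per kb. Among these, Snap25, Syn2 and Syt1 lay within their spread of each other. In the knockdown tumours Nefl (13.0 ± 16.1 CPM per kb, SD, n = 9), Nrgn (12.5 ± 6.02) and Tubb3 (11.9 ± 6.93) had the highest means, close together against their spread. Without knockdown 8 the means were 7.80 ± 4.40 for Nefl, 11.3 ± 5.00 for Nrgn and 12.1 ± 7.37 for Tubb3, with Nefl beside Ncam1 at 7.64 ± 2.27 CPM per kb, and Stmn2 came to 1.38 ± 2.19 (SD, n = 8). The other genes below are given over all 9. Ncam1 (7.28 ± 2.37) and Nefm (5.60 ± 3.74) were next, then Stmn2 (2.91 ± 5.03) and Snap25 (2.88 ± 1.77), and Syt1 (0.807 ± 0.675), Syn2 (0.649 ± 0.323) and Rbfox3 (0.313 ± 0.181 CPM per kb) came last. Nrgn, under Stmn2 in the controls, was above it in the knockdown tumours, with or without knockdown 8.

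Among the knockdown tumours no order was common to all the genes, but some of them rose and fell together. By Pearson's r of log2(CPM + 1), a description with no test, Syt1 went with Syn2 (r = 0.94) and Snap25 with Nefl (0.93). Nefl also went with Nefm (0.94), although the reads of these genes may not be told apart. Other pairs did not go together, such as Nefm and Rbfox3 (-0.14) or Nrgn and Ncam1 (-0.48). Knockdown 8 was highest for Snap25, Nrgn, Stmn2, Nefl and Nefm, and knockdown 9 for Syt1, Syn2 and Ncam1. Knockdown 6 was lowest for Syt1, Syn2, Nrgn and Rbfox3, and knockdown 4, highest for Rbfox3, was lowest for Stmn2, Nefl and Nefm. The largest level was between 2.65 and 7.01 times the smallest for Ncam1, Nrgn, Tubb3, Rbfox3 and Snap25, and 8.23-fold for Syn2, 15.3-fold for Nefm, 16.9-fold for Syt1, 35.5-fold for Nefl and 49.6-fold for Stmn2.

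**Figure D3:**
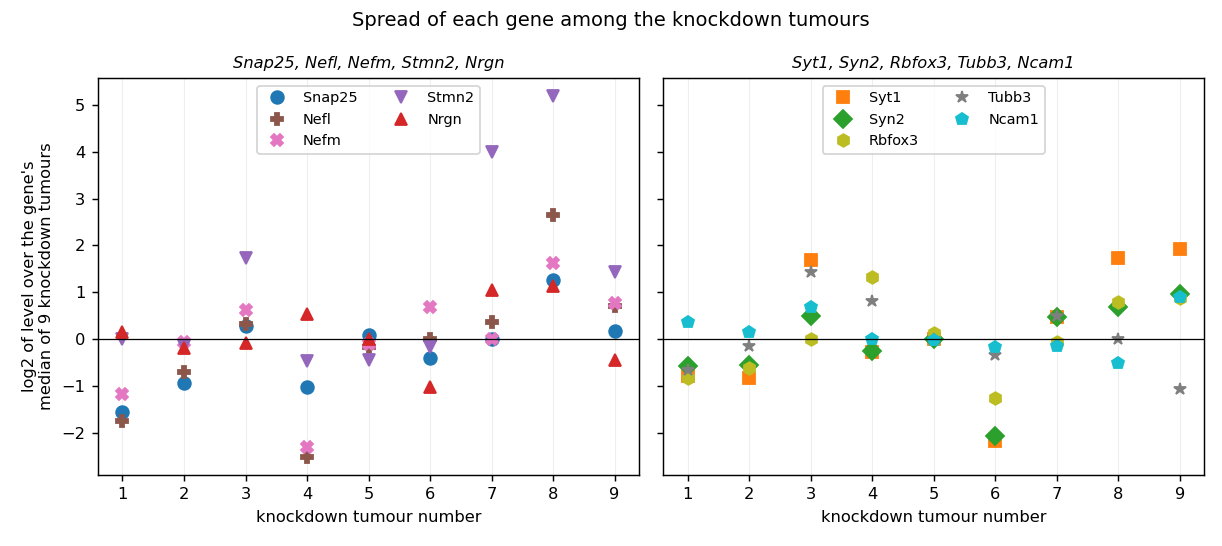
Level of each gene in knockdown tumours 1 to 9, as log2 of its ratio to the gene's own median over these 9 libraries. Knockdown 8 is highest for Snap25, Nefl, Nefm, Stmn2 and Nrgn, and knockdown 6 is lowest for Syt1, Syn2, Nrgn and Rbfox3.

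Likeness to Snap25 was measured over the 9 knockdown libraries, as Pearson's r of log2(CPM + 1), and is a description with no test. Of the members, Nefl was most like it (r = 0.93, Spearman's rho 0.87), and only 2 of the 12187 other genes with a mean of at least 4 CPM had a higher r. Nefm (r = 0.81), Stmn2 (0.75), Syt1 (0.73) and Syn2 (0.61) followed, and Rbfox3 (0.36), Nrgn (0.31), Tubb3 (0.15) and Ncam1 (-0.22) were least like it. Outside the members, the genes most like Snap25 included Chrna1, a nicotinic acetylcholine receptor subunit (r = 0.96), Lamb1, a laminin chain (0.94), Uhrf1bp1l (0.92), the growth factor Ereg (0.90), Cyth2 (0.90), Ube2ql1 (0.90) and Nme2 (0.89). Unlike Snap25, none of these 7 rose in the knockdown tumours. Lamb1, Uhrf1bp1l and Cyth2 fell, with log2 fold changes of -0.68, -0.58 and -0.49 (edgeR, adjusted p = 0.035, 0.035 and 0.029). The highest knockdown library of all 7 genes was knockdown 8, as for Snap25. They were picked by likeness to Snap25, which stood apart in that library. The shared peak therefore follows largely from the choice and is no separate result.

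No relation of Snap25 with the Ezh2 that remained passed the test over all knockdown tumours. Over the 9 knockdown tumours Pearson's r was -0.15 (exact permutation p = 0.69) and Spearman's rho was -0.017 (exact permutation p = 0.98), both two-sided. Without knockdown 3 and 9, the 2 libraries farthest from the median of Ezh2, r was -0.76 (exact permutation p = 0.047) and rho was -0.64 (exact permutation p = 0.14), and without knockdown 8 r was 0.28 (exact permutation p = 0.49).

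The relatives of the members changed in either direction as well. Of 37 tested genes of the same families, 5 rose and 6 fell, or 29.7%, against 23.3% among all genes. Without control 1, 1 rose and 3 fell, and without control 2, 1 rose and 4 fell. Limma-voom called 3 higher and 6 lower, and without knockdown 7 and 9, 11 fell. Syt13 and Ina, a neuronal intermediate filament, rose with log2 fold changes of 2.78 ± 0.63 and 2.37 ± 0.61 (edgeR, adjusted p = 0.0097 and 0.017). Syn1, the other main synapsin of neurons, fell by 1.90 ± 0.36 on the log2 scale, from 54.7 and 25.4 CPM in the controls to between 6.43 and 16.8 CPM (adjusted p = 0.0039). Tubb2b, a tubulin of young neurons, fell by 1.57 ± 0.19 (adjusted p = 0.00030) and Syt11 fell by 1.72 ± 0.27 (adjusted p = 0.0013). Snap23, the form of Snap25 found outside neurons, fell by 0.48 ± 0.12 (adjusted p = 0.016), from 65.2 and 81.0 CPM to between 46.1 and 60.2 CPM. Ncam2, the relative of Ncam1, rose by 1.22 ± 0.37 (adjusted p = 0.035).

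Beyond the 10 genes, 189 other neuronal genes of 6 lists were tested, of which 20 rose, 31 fell and 138 did not pass. Thus 27% changed, against 23.3% among all genes. Without control 2, 2 rose and 24 fell, and without control 1, 11 rose and 11 fell. Of 44 other presynaptic genes 6 rose and 10 fell (median log2 fold change 0.33). Without control 1, 5 rose and 3 fell, and without control 2, 1 rose and 7 fell. Lin7a, a scaffold protein, rose by 3.46 ± 0.58 (edgeR, adjusted p = 0.0020) and Rims1, of the active zone, by 1.57 ± 0.35 (adjusted p = 0.0090). The priming factor Unc13a fell by 2.11 ± 0.27 (adjusted p = 0.00050) and the vesicle protein Syngr1 fell by 2.09 ± 0.31 (adjusted p = 0.00098).

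Of 37 postsynaptic genes 4 rose and 5 fell (median 0.05). Without control 1, 2 rose and 1 fell, without control 2, 0 rose and 4 fell, and limma-voom called 2 higher. The scaffold Dlg2 rose by 3.30 ± 0.70 (edgeR, adjusted p = 0.0071), and Camk2a, a kinase of excitatory synapses, by 1.63 ± 0.47 (adjusted p = 0.028), while Shank2 fell by 1.92 ± 0.34 (adjusted p = 0.0029) and Dlg4, known as PSD-95, fell by 0.76 ± 0.15 (adjusted p = 0.0049). Of 31 cytoskeletal genes 3 rose and 7 fell (median -0.37). Without control 1, 1 rose and 4 fell, and without control 2, 1 rose and 8 fell. Besides Ina, Dpysl3 rose by 1.01 ± 0.28 (adjusted p = 0.024), and the microtubule-associated protein Mtap1b (now Map1b) fell by 1.57 ± 0.19 (adjusted p = 0.00030), as did Tubb2b. Of 24 adhesion genes 2 rose and 2 fell (median 0.70). Those that rose were 1 without control 1 or knockdown 2, 4 or 5 and 0 without control 2 or with limma-voom. Those that fell were 1 without control 1 or without control 2, and 4 within the libraries with Xist reads. Cntn4, a contactin, rose by 4.92 ± 1.11 (adjusted p = 0.0094), while Nrcam and Cdh2 (N-cadherin) fell by 1.79 ± 0.31 and 1.38 ± 0.36 (adjusted p = 0.0024 and 0.017). Cntn4 stood at 0.384 and 0.0626 CPM in the controls, the latter under the floor of 3 counts, so that the size of its rise is uncertain.

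**Figure D4:**
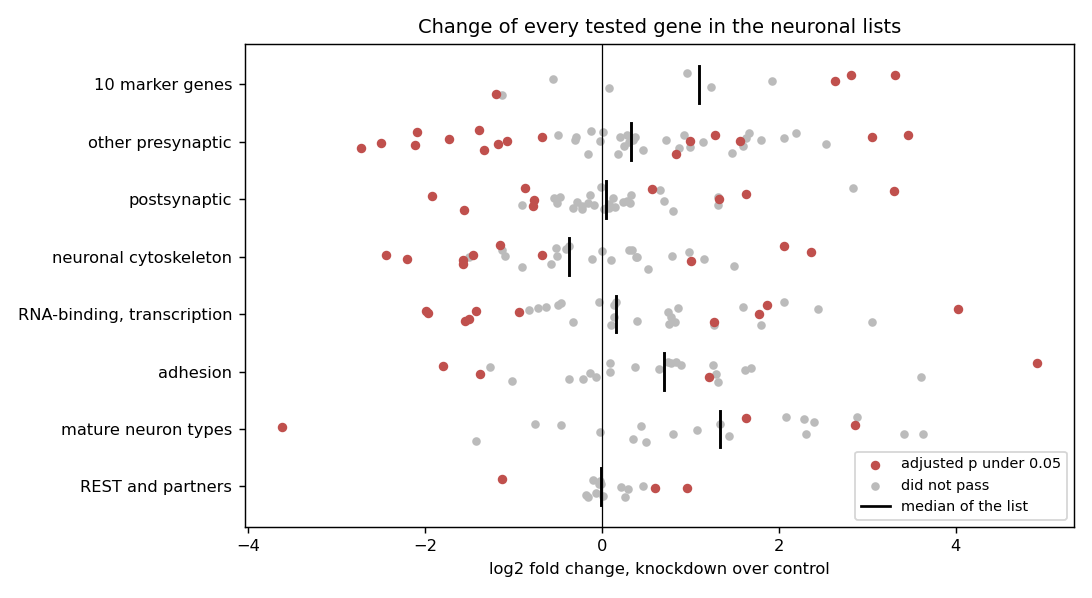
Log2 fold change of knockdown over control for every tested gene of each list (points, red at an adjusted p under 0.05) with the list's median (line). In each of the neuronal lists drawn, genes that passed lie on both sides of 0.

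Of 33 RNA-binding proteins and transcription factors of neurons 4 rose and 6 fell (median 0.16). Those that rose were 1 without knockdown 1 or 2 or within the libraries with Xist reads, 2 without knockdown 4 or 5 or control 1, and 0 without control 2. Those that fell were 3 without knockdown 5 or control 2 and 1 without control 1. The homeobox genes Isl1 and Dlx1, the latter of interneuron precursors, rose by 4.03 ± 1.04 and 1.78 ± 0.54 (edgeR, adjusted p = 0.017 and 0.034), and Hivep2 and the splicing regulator Nova2 fell by 0.93 ± 0.16 and 1.42 ± 0.27 (adjusted p = 0.0024 and 0.0035). Isl1 stood at 0.384 and 0 CPM in the controls and between 0.795 and 6.54 CPM in the knockdown tumours, so that the size of its rise is uncertain. The paralogs of Rbfox3 that are also expressed outside mature neurons, Rbfox2 (-0.32 ± 0.23) and Rbfox1 (-0.50 ± 0.70), did not pass (adjusted p = 0.33 and 0.64). Rest, the repressor, ranged between 98.4 and 125.4 CPM in the knockdown tumours and stood at 145.7 and 106.7 CPM in the controls (-0.15 ± 0.13, adjusted p = 0.42). Of its 15 listed genes, partners included, 2 rose and 1 fell (median -0.01). None passed without control 1, 4 rose without knockdown 3 or with DESeq2, and within the libraries with Xist reads 3 rose and 0 fell. Hdac1 and Ctdspl rose by 0.61 and 0.97 on the log2 scale and Rcor2 fell by 1.13 (adjusted p = 0.0053, 0.023 and 0.017).

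Of 25 genes that define mature neuron types 21 could be tested, and 2 rose and 1 fell (median 1.34). None rose without control 1, without control 2 or with limma-voom, and DESeq2 called 4 higher. Besides Camk2a, the neuropeptide gene Tac1 rose by 2.86 ± 0.79 (edgeR, adjusted p = 0.023), at 3.07 CPM or less in any library. It stood at 0.307 and 0.125 CPM in the controls, the latter under the floor of 3 counts, so that the size of its rise is uncertain. Reln, which encodes reelin, fell by 3.61 ± 0.31 (edgeR, adjusted p = 5.7e-05). Slc17a7, the vesicular glutamate transporter of cortical neurons, ranged between 1.54 and 19.8 CPM in the knockdown tumours, highest in knockdown 8 and 7, and stood at 3.77 and 0.250 CPM in the controls (2.08 ± 1.10, adjusted p = 0.19). Of the genes of inhibitory neurons, Gad1 (-0.46 ± 0.69) and Slc32a1 (2.31 ± 1.25) did not pass (adjusted p = 0.66 and 0.20). The peptide gene Vip ranged between 5.10 CPM in knockdown 9 and 656.0 CPM in knockdown 7, and stood at 23.98 and 13.96 CPM in the controls (2.88 ± 1.62, adjusted p = 0.22).

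Markers of other cells of the brain differed between the groups too, and their part in the results above was not tested. Among all genes tested by edgeR, 23.3% passed (10.3% higher, 13% lower), the share beside which the counts of markers stand. The summed level of 13 markers of oligodendrocytes, the cells that myelinate axons, was between 289.0 and 447.8 CPM in the knockdown tumours and 119.5 and 141.8 CPM in the controls, and none of the 13 was at 0 in both controls. Of 11 tested, 3 rose, Mbp (10.2-fold) and Mobp among them, and 1, Aspa, fell 9.98-fold (edgeR, adjusted p = 0.0015, 0.0087 and 0.00097). The number that rose was 2 with control 1 or control 2 left out and 5 with knockdown 6 left out. Of 10 markers of oligodendrocyte precursors, with sums between 170.4 and 391.2 CPM in the knockdown tumours and 244.5 and 319.6 CPM in the controls, 4 rose and 2 fell, among them Neu4 and Pdgfra up (adjusted p = 0.017 and 0.024) and Olig2 and Olig1 down (adjusted p = 0.0085 and 0.012). Neu4 was under the floor in both controls (0.0769 and 0 CPM) and between 0.0908 and 2.32 CPM in the knockdown tumours. The precursor markers that rose were 1 with limma-voom and 2 without knockdown 1, 2, 4 or 5 or within the libraries with Xist reads, and the number also depended on each control. None fell without control 2. No astrocyte marker passed by edgeR (0 of 11, with 2 at an unadjusted p under 0.05), with sums between 600.9 and 1566 CPM in the knockdown tumours and 940.0 and 965.8 CPM in the controls. As higher, DESeq2 called 2 of them, limma-voom 1 and edgeR 1 without knockdown 3. As lower, edgeR called 2 without knockdown 7 and 9 and 1 within the libraries with Xist reads. The smallest p belonged to Agt and Gfap (log2 fold changes 2.42 and 2.03, adjusted p = 0.073 and 0.090).

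Of 10 endothelial markers 3 rose, with Emcn and Tie1 at 3.35-fold and 2.83-fold, and 1, Flt1, fell 5.32-fold (edgeR, adjusted p = 0.045, 0.048 and 9.5e-05). The number that rose varied with single libraries: 0 without knockdown 2, 5 or 6, without control 1, without control 2 or with limma-voom, 1 without knockdown 1 or 4, 6 with DESeq2 and 7 without knockdown 3. Their sums were between 155.7 and 387.4 CPM in the knockdown tumours and 248.0 and 429.4 CPM in the controls. Of 10 microglia markers 5 fell, such as Itgam and C1qa (2.89-fold and 2.32-fold, adjusted p = 0.0018 and 0.012), with sums between 266.1 and 530.3 CPM in the knockdown tumours and 603.7 and 1184 CPM in the controls. Those that fell were 1 without control 2, 2 without knockdown 2 or 5, and 3 without knockdown 4 or 8, with limma-voom or within the libraries with Xist reads. Of 9 tested neutrophil markers 8 fell, Ngp and Mpo with the smallest p (adjusted p = 2.7e-05 and 8.2e-05), with sums between 3.00 and 11.1 CPM in the knockdown tumours and 211.9 and 63.8 CPM in the controls. Of 11 tested genes of dense-core vesicles, which neurons share with endocrine cells, 2 fell, Cpe 2.37-fold and Vgf 3.57-fold (adjusted p = 0.015 and 0.029), with sums between 378.1 and 1187 CPM in the knockdown tumours and 1678 and 1734 CPM in the controls. None fell without control 1 and 1 fell without control 2, while DESeq2 called 3 others higher and edgeR 1 without knockdown 6. Ependymal markers were scarce, between 3.10 and 22.7 CPM in sum over the knockdown tumours and 9.30 and 8.57 CPM in the controls. None of the 5 ependymal markers tested passed by edgeR, at an adjusted or an unadjusted p (smallest adjusted p 0.20, for Tmem212), and Dynlrb2 and Ccdc153 were at 0 in both controls.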

How the data were processed

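RNA of 11 mouse tumours was extracted with TRIzol, made into TruSeq RNA libraries and sequenced on a HiSeq2000, per the labels' protocols. The deposited table holds whole-number read counts per Ensembl gene, whose whole numbers sum to a different total in each library. TopHat 1.4.0, HTSeq and the build mm9 are named, per the submitters' processing notes. Settings and the use of strand in counting were not given in the sources used here. Groups and replicate numbers came from the sample titles.

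Counts were filtered with filterByExpr and scaled with TMM in edgeR 4.0.16 (R 4.3.3), and the groups were compared in a fit of all 11 libraries without covariates, by the quasi-likelihood F-test, with Benjamini-Hochberg adjustment over 16241 genes and a threshold of 0.05. The SE is the log2 fold change divided by the square root of F. The procedure was tested on simulated counts. Alternatives were RLE factors, DESeq2 1.42.0, limma-voom 3.58.1, no filter, each library left out, knockdown 7 and 9 left out, a replicate block and, added after seeing the data, the libraries with Xist reads. With 1 control left, its spread is assumed to be that of the other libraries. Exon lengths are unions of exons from GENCODE M21, a later build, matched by gene identifier, and strands came from there too. Coordinates of genes are those of the table. Replicate libraries differed by more than sampling noise (smallest chi-square per degree of freedom 11.2). A count of 3, the floor, corresponded to between 0.162 and 0.272 CPM.

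The members and the 16 other lists were chosen with earlier results of these data known, from general knowledge. Of their 340 entries 6 were matched through an older symbol and the rest directly. The rule for named genes took all members, Ezh2, up to 2 genes with the smallest p in each direction of each list (where none passed, the 2 of smallest p) and the 8 genes most like Snap25. Mobp, the relatives Syn1, Snap23, Rbfox1 and Rbfox2, Rest, and Slc17a7, Gad1, Slc32a1 and Vip were named besides, after their values were seen. Of the genes this rule took, 2 are not reported here.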

Additional observations from a re-analysis of the deposited data

Results flagged for a closer look

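In 3 of the 10 genes the highest of the 9 knockdown libraries stood apart from the others, its gap to the next library being above Dixon's 95% critical value as a share of the whole range, and in each it was knockdown 8. Snap25 was at 47.2 CPM there, with the next library at 23.9 CPM (gap 0.575 of the range). Stmn2 was at 85.0 CPM, with the next at 37.5 CPM (gap 0.570). Nefl was at 184.5 CPM, with the next at 48.2 CPM (gap 0.760). The gaps were taken in CPM, where high levels lie farther apart than on a log scale, and the log scale was not tested. For normally distributed levels chance flags about 1 in 20 such groups, and 10 were looked at. These are not independent since the libraries are shared.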

How the results depend on the processing

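Of the 10 members 4 passed (3 higher, 1 lower), and all 4 kept their direction in the 18 other fits. Leaving out 1 library at a time, the members called ranged between 1 and 4, those higher between 1 and 3 and those lower between 0 and 1, and genes called ranged between 1290 and 4269 against 3790. The low ends came from leaving out a control: 1 member and 1290 genes without control 1, and 2 members and 1750 genes without control 2. Other neuronal genes ranged between 2 and 22 higher and between 11 and 35 lower. The titles give both groups the replicate numbers 1 and 2 only. The deviations of same-numbered tumours from their group means had correlations of -0.15 and 0.012. With 2 controls these deviations mirror each other, so that the correlations cannot tell whether same-numbered tumours share more than a number. With the replicate block 2 members passed, Nrgn as higher and Stmn2 (-2.77) as lower. That fit called 686 genes, with 8 other neuronal genes higher and 11 lower. Only knockdown 1 and 2 share a number with a control, so its group effect rests on them and the controls. The other knockdown tumours do not enter that effect. Those in which Stmn2 was above both controls are among them. Within the libraries with Xist reads, a choice made after seeing the data, 2 members were lower.

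Stmn2 changed sign in 8 fits: DESeq2 (-1.04), limma-voom (-1.30), the replicate block, the libraries with Xist reads (-2.35), without knockdown 7 and 9 (-0.071), and in leave-one-out fits, which ranged between -0.998 and 0.30. The cause was not tested. The relation of Snap25 with Ezh2 ranged between r = -0.34 and 0.28 with 1 library left out, reversing without knockdown 8, and was -0.76 without the 2 libraries farthest in Ezh2. Only 2 controls and low counts limit Rbfox3, with 7 counts over both controls.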
